A study of Mus musculus with 25 samples.

Results

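The GATA factors are DNA-binding proteins with a pair of zinc fingers that recognise the letters GATA, and the genes Gata2, Gata3, Gata4, Gata5 and Gata6 were followed here across the E14.5 mouse palate. They are 5 of the 37406 genes listed and were taken by gene symbol. All 5 were found, each on 1 row. Gata1, the blood cell member of the family, was counted among the related genes below. RNA was taken by laser capture microdissection, in which a chosen area is cut from a tissue section under the microscope, from wild type mice of the CD1 strain at E14.5, soon after the palatal shelves meet. The 25 libraries cover 8 compartments, anterior medial, anterior lateral, anterior oral, anterior nasal and the matching posterior compartments, each with 3 biological replicates except anterior nasal with 4. No group carried a mutation or a treatment. Medial and lateral are a division of the same shelf that oral and nasal divide the other way, so a medial or lateral area shares ground with an oral or nasal one.

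In vertebrates Gata1, Gata2 and Gata3 are known mainly from blood, and Gata4, Gata5 and Gata6 from the heart and the endoderm. Gata2 maintains blood stem cells and acts in mast cells and endothelium. Gata3 directs T cells and innate lymphoid cells and is also used in epithelia, the inner ear, the kidney and the sympathetic nervous system. GATA proteins act with cofactors of the Fog family (Zfpm1 and Zfpm2) and in complexes with Ldb1, Lmo2 and Tal1.

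Values are RPKM, reads divided by the length of the transcript and by the depth of the library, which can be set side by side between genes. The totals implied by the RPKM values ran from 1.64 to 6.56 M reads, and 12935 to 20605 genes were above 0. These totals are of reads left once duplicate and multiply aligned reads had been dropped. They are not the sequenced depth, for which the paper reports a larger average per sample. Posterior medial replicate 2 stood apart with the 12935, the next library having 16330. At the median depth 1 read was worth 0.0912 RPKM for Gata2 and 0.0952 RPKM for Gata3, so the low values below rest on a few reads. The summed level of 8 palate mesenchyme markers, among them Prrx1 and Twist1, lay between 593 and 965 RPKM in every library, and all 8 were above 0 in every compartment. In such pieces of tissue, fewer cells of a type and less RNA per cell cannot be told apart.

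Gata2 (gene ID 14461) lies at chr6:88143885-88157026 and Gata3 (gene ID 14462) at chr2:9778705-9800227 in the files' build, mm9. Gata4 lies at chr14:63817752-63890529 and Gata5 at chr2:180059793-180069384. RefSeq promoters of build GRCm38.p6 matched 3 of the 5 members. The 250 bases before each start are shown for Gata2 and Gata3, because these were the members with most of the reads. Gata2 has 2 listed starts, at chr6:88193641-88193890 and chr6:88198414-88198663 on the plus strand, and a value per gene does not separate them. The Gata3 window is chr2:9878601-9878850 on the minus strand. Capitals mark the GC box and, in either orientation, the CCAAT box, both spelled out after the windows.
Gata2 start 1: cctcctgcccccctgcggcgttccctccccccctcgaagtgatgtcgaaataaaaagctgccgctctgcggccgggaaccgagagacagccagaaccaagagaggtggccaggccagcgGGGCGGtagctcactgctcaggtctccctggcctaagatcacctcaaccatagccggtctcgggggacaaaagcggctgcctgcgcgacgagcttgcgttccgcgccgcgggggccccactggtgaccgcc
Gata2 start 2: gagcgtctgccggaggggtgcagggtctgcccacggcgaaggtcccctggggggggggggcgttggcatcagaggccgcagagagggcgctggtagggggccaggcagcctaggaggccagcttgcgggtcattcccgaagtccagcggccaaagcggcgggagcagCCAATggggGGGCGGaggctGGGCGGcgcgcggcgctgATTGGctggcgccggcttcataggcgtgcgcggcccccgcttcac
Gata3: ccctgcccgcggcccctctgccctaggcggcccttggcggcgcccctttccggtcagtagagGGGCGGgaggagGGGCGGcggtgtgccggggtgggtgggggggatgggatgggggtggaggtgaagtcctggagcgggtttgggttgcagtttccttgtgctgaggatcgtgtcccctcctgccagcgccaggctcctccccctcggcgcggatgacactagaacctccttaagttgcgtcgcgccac

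The 3 windows are rich in G and C, at 67.2% and 74.0% for Gata2 starts 1 and 2 and 70.0% for Gata3. The GC box, GGGCGG, occurred at -131 before Gata2 start 1, at -74 and -63 before Gata2 start 2, and at -188 and -176 before the Gata3 start, counted to the first base of the match. The CCAAT box, whose reverse complement is ATTGG, occurred before Gata2 start 2 alone of the 3, at -83 and, on the reverse strand, at -45. Over 32851 RefSeq starts, windows of this length held GGGCGG in 32.7%, CCAAT in 33.9% and TATAAA in 12.4%, both strands counted. The box that GATA proteins can bind was searched as AGATAA (9.99% of windows on either strand). It was also searched as AGATAG (7.71%). The further forms were TGATAA (7.94%) and, last, TGATAG (6.35%). At least 1 of these 4 was in 26.5% of all windows and in none of the 3 shown. These matches describe the letters only.

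Gata2 was the most abundant member, and its levels were high in the anterior nasal and anterior lateral compartments. It had been listed by the study for anterior against posterior, anterior lateral against medial and anterior oral against nasal. For those comparisons, and for its anterior-posterior differences within compartments, its values are therefore a description with no test. The posterior lateral against medial and posterior oral against nasal differences were not among those listed, and are tested. In the anterior nasal libraries Gata2 was at 17.6, 20.9, 18.8 and 25.4 RPKM. In the anterior lateral libraries it was at 8.56, 15.8 and 12.01 RPKM. These 7 libraries were the highest of all 25.

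In the anterior medial libraries Gata2 was at 2.46, 2.18 and 4.51 RPKM, and in the anterior oral libraries at 5.64, 2.95 and 1.94 RPKM. The posterior libraries read 2.54, 0 and 1.39 RPKM in medial, 4.27, 2.75 and 2.95 RPKM in lateral, 2.06, 5.98 and 2.83 RPKM in oral and 4.73, 4.90 and 3.33 RPKM in nasal. All 12 posterior libraries thus stayed below the lowest anterior lateral library, and they overlapped the anterior medial and oral ones. The 0 belongs to posterior medial replicate 2, the library with few genes, where 3 reads would have given 0.381 RPKM.

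The order of the Gata2 means was anterior nasal 20.7 ± 3.42 (SD, n = 4), anterior lateral 12.1 ± 3.60 (SD, n = 3), posterior nasal 4.32 ± 0.860, posterior oral 3.62 ± 2.08, anterior oral 3.51 ± 1.92, posterior lateral 3.32 ± 0.826, anterior medial 3.05 ± 1.27 and posterior medial 1.31 ± 1.27 RPKM. Anterior nasal did not overlap anterior lateral, and anterior lateral did not overlap posterior nasal. The order was taken from these same values, and the share of all genes with no overlap was not computed for these pairs. From posterior nasal downwards each compartment overlapped its neighbour in the order. Without the sparse library posterior medial was at 1.97 ± 0.813 RPKM (SD, n = 2).

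**Figure D1:**
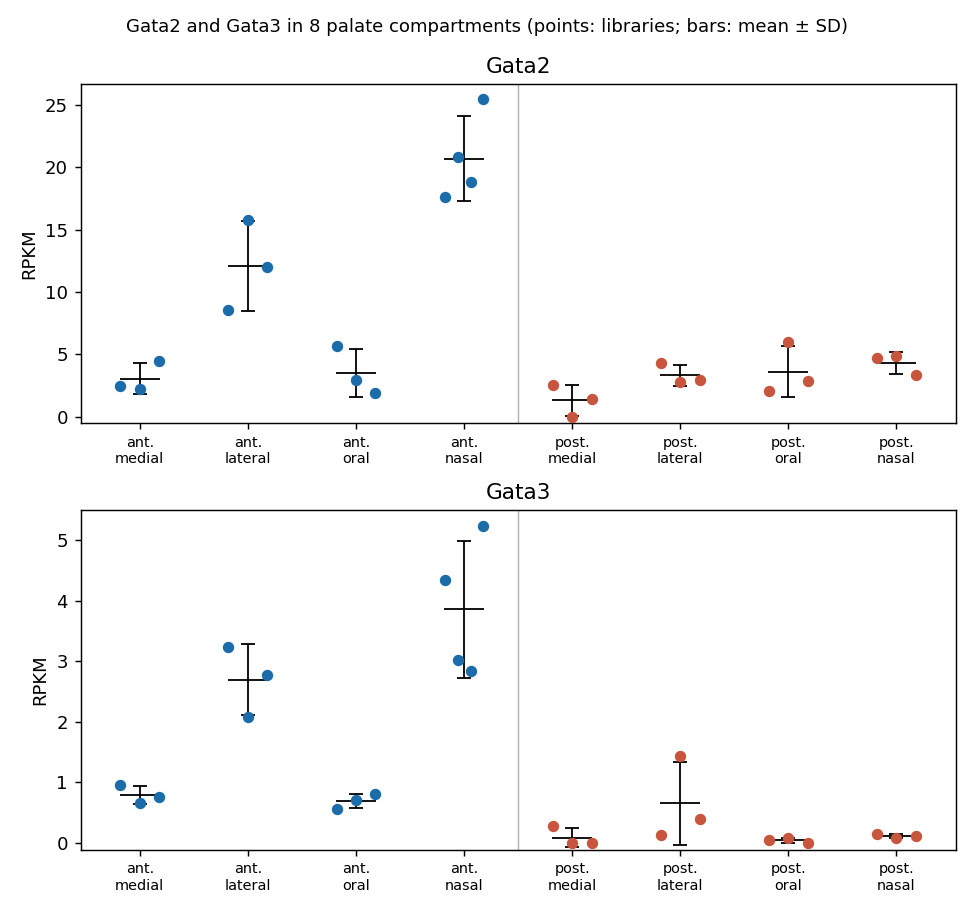
Gata2 (top) and Gata3 (bottom) in RPKM on the vertical axis, each point 1 library, with mean ± SD, in the 4 anterior (blue) and 4 posterior (red) compartments. Anterior nasal and anterior lateral are the highest compartments for both genes, and nearly all posterior Gata3 values lie close to 0.

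Gata3 had the same pair of compartments on top at a lower level. The anterior nasal libraries read 4.33, 3.01, 2.84 and 5.23 RPKM and the anterior lateral libraries 3.24, 2.07 and 2.78 RPKM. The anterior medial libraries read 0.952, 0.664 and 0.767 RPKM, and the anterior oral libraries 0.569, 0.714 and 0.807 RPKM. The lowest anterior library, anterior oral replicate 1, held 3 reads of Gata3, and the highest, anterior nasal replicate 4, held 68.4.

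In the posterior palate Gata3 was at 0.131, 1.44 and 0.401 RPKM in lateral, 0.276, 0 and 0 in medial, 0.154, 0.0807 and 0.124 in nasal and 0.0498, 0.0906 and 0 in oral. All posterior libraries together held 28.3 reads of Gata3 against 275 in the anterior libraries. Posterior lateral replicate 2, with 11 reads, was the 1 posterior library above any anterior one. In the 3 libraries at 0, 3 reads would have given 0.242 to 0.397 RPKM, so a Gata3 level below that could have been missed in them.

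The order of the Gata3 means was anterior nasal 3.85 ± 1.13 (SD, n = 4), anterior lateral 2.70 ± 0.586 (SD, n = 3), anterior medial 0.794 ± 0.146, anterior oral 0.696 ± 0.120, posterior lateral 0.656 ± 0.689, posterior nasal 0.120 ± 0.0367, posterior medial 0.0921 ± 0.160 and posterior oral 0.0468 ± 0.0454 RPKM. Anterior lateral lay above anterior medial with no overlap, as was the case for 18.8% of all genes above 0. All other neighbours in the order overlapped. Anterior nasal and anterior lateral, which share ground in the shelf, were among the overlapping neighbours.

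Gata3 fell from anterior to posterior. The mean was 2.15 ± 1.55 RPKM in the 13 anterior and 0.229 ± 0.398 RPKM in the 12 posterior libraries, a ratio of 9.41. With limma on log2(RPKM + 0.1) the difference, posterior minus anterior, was -2.95 (SE 0.43, adjusted p = 0.000138), and this scale understates changes of low genes. Gata3, Gata4, Gata5 and Gata6 did not meet the study's expression minimum, which asks for 5 RPKM in 3 compared samples for pairs and more for the whole palate (Gata3 was above 5 RPKM in 1 library), so the tests given here run over all genes above 0 in at least 1 compared library. These tests were not planned. In the fit of posterior against anterior 2.17% of the 22399 genes passed an adjusted p of 0.05. Gata3 was the 1 member of the 4 tested to do so.

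The direction was the same in each compartment, and in each of them every anterior library was above every posterior one. Within nasal the difference in log2(RPKM + 0.1) was -4.14 (SE 0.50, limma adjusted p = 0.000358) and within medial -2.51 (SE 0.54, adjusted p = 0.0266). Within oral it was -2.48 (SE 0.54, adjusted p = 0.0611) and within lateral -2.29 (SE 0.54, adjusted p = 0.0775), neither of which passed. Genes with no overlap made up 14.2% in nasal, 9.31% in medial, 7.73% in oral and 13.9% in lateral of the genes above 0, and genes called made up 1.08%, 0.759%, 0.259% and 0.451%. The medial call was lost in several alternatives, among them leaving out the sparse posterior medial replicate 2 (adjusted p = 0.148), while the nasal call held in all 32.

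The Gata3 difference kept its direction without the highest compartments. With the lateral and nasal libraries left out, a choice made after the values were seen, the mean was 0.745 ± 0.131 RPKM in 6 anterior and 0.0695 ± 0.108 RPKM in 6 posterior libraries. Their ranges, 0.569 to 0.952 and 0 to 0.276 RPKM, did not overlap, and the log2 difference was -2.49. Posterior medial held 4.84 reads of Gata3 in all, with the sparse replicate 2 included, and posterior oral held 2. The share of all genes with no overlap in this subset was not computed. Without posterior medial replicate 2 the difference over all libraries was -2.84.

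Gata2, given as a description, was at 10.7 ± 8.20 RPKM in the anterior and 3.14 ± 1.64 RPKM in the posterior libraries, a ratio of 3.40 and a log2 difference of -1.63 (SE 0.56). The ranges, 1.94 to 25.4 and 0 to 5.98 RPKM, overlapped. With the lateral and nasal libraries left out the means were 3.28 ± 1.48 and 2.47 ± 1.99 RPKM, and the log2 difference was -1.0. Within compartments it was -2.24 (SE 0.72) in nasal, -1.82 (SE 0.77) in lateral, -2.03 (SE 0.77) in medial and 0.04 (SE 0.77) in oral. The medial value was -0.60 without posterior medial replicate 2.

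**Figure D2:**
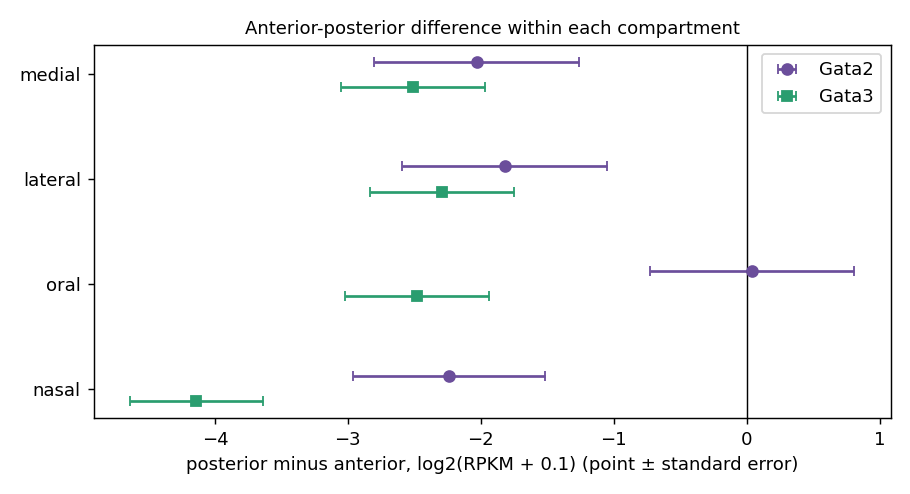
Posterior minus anterior difference of Gata2 (circles) and Gata3 (squares) on the log2(RPKM + 0.1) scale, horizontal axis, with standard errors, for medial, lateral, oral and nasal compartments, from 1 fit of 8 compartments over all genes above 0. Gata3 is below 0 in every compartment and lowest in nasal at -4.14, while Gata2 in oral lies at 0.04.

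Where a sequencing run, read from the names of the alignments, held libraries of both ends, the differences went the same way. For Gata3 they were -4.39 in nasal and -2.60 in oral within run C, -1.71 in lateral within run H and -3.15 in medial within run G. For Gata2 they were -2.40 in nasal and 0.09 in oral within run C, -2.04 in lateral within run H and -2.96 in medial within run G, the last with the sparse library in it. Each of these compares 1 to 3 libraries with 1 or 2.

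Markers of other cells were also set side by side between the ends of the palate. The summed level of 8 T and innate lymphoid markers was 16.0 to 40.8 RPKM in the anterior and 8.70 to 29.2 RPKM in the posterior libraries. These ranges overlapped, and 0 of the 8 genes were called for posterior against anterior over all libraries. Its most abundant genes in anterior lateral were Thy1, Rora and Il2ra, at means of 10.3, 9.29 and 3.25 RPKM. The same genes led in posterior lateral, at 7.98, 4.46 and 2.56 RPKM. Il7r was at 0.179 and 0.247 RPKM in these compartments, so the sum there mostly follows the more abundant genes. In nasal, Cd3e, a chain of the T cell receptor complex, fell by 3.03 on the log2(RPKM + 0.1) scale (SE 0.51, limma adjusted p = 0.00452), and Il7r, the interleukin 7 receptor, fell by 2.50 (SE 0.52, adjusted p = 0.0203), 2 of the 8 genes of the list. Cd3e was at 0 in every anterior medial and anterior lateral library, and in the latter Gata3 was at 2.70 RPKM. Posterior lateral replicate 2, with the highest posterior Gata3, had a summed level of 10.8 RPKM, and posterior lateral replicate 1, with Gata3 at 0.131 RPKM, had 29.2 RPKM. The summed level of 10 epithelial markers was 52.7 to 159 RPKM in the anterior and 29.4 to 180 RPKM in the posterior libraries. The 8 smooth muscle and pericyte markers summed to 53.5 to 176 RPKM in the anterior and 30.1 to 125 RPKM in the posterior libraries, and 3 of them, Rgs5, Actg2 and Kcnj8, were called lower in the posterior ones. The part of these cells in the Gata3 result was not tested.

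Across the anterior shelf, Gata2 was higher in lateral than in medial by 1.98 on the log2 scale (SE 0.36) and lower in oral than in nasal (oral minus nasal -2.64, SE 0.41), as a description. Neither pair overlapped. Gata3 stood in the same order, at 1.63 (SE 0.22, limma adjusted p = 0.0513) for lateral minus medial and -2.28 (SE 0.33, adjusted p = 0.514) for oral minus nasal, and no test of it passed. Its libraries did not overlap in either pair, as was the case for 18.8% and 3.62% of all genes above 0. Called genes were 0.841% for lateral against medial. For oral against nasal they were 0, with 832 of 22072 genes at an unadjusted p under 0.05.

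Anterior lateral and anterior medial libraries shared no sequencing run, so run and compartment cannot be told apart there. With run as a term in the fit of all compartments the Gata2 difference was 2.82 (SE 1.63, among genes at the expression minimum). Anterior oral and nasal libraries shared 3 runs, in which the log2 difference was -3.65, -1.75 and -2.63 for Gata2 and -2.55, -2.47 and -1.85 for Gata3.

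In the posterior shelf, where Gata2 could be tested, neither gene was called. Gata2 was at 2.20 for lateral minus medial (SE 1.23, limma adjusted p = 0.938) and -0.37 for oral minus nasal (SE 0.43, adjusted p = 0.946). Gata3 was at 1.85 (SE 0.88, adjusted p = 0.938) and -0.62 (SE 0.32, adjusted p = 0.838). For lateral against medial 0 of 20384 genes were called, with 531 at an unadjusted p under 0.05, and for oral against nasal 0.0532% were. Gata2 did not overlap between posterior lateral and medial, as was the case for 6.59% of genes, with the highest medial library at 2.54 RPKM and the lowest lateral one at 2.75 RPKM. Without posterior medial replicate 2 its difference was 0.76.

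Whether the anterior pair differences were themselves larger than the posterior ones was tested for Gata3. The interaction, posterior less anterior, was 0.22 (SE 0.76, limma adjusted p = 1) for lateral minus medial and 1.66 (SE 0.74, adjusted p = 1) for oral minus nasal, with a p of 0.0356 before adjustment for the latter. Called genes were 0, with 810 of 22399 at an unadjusted p under 0.05, and 0.00893%. For Gata2 the same contrasts were 0.22 (SE 1.09) and 2.28 (SE 1.06), as a description.

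Mast cells, which use Gata2, were looked for in the compartments where Gata2 was high. The summed level of 10 mast cell markers was 54.4 to 150 RPKM in anterior nasal against 11.3 to 43.2 RPKM in anterior oral and 4.86 to 9.81 RPKM in posterior nasal, and 10.8 to 67.0 RPKM in anterior lateral against 6.11 to 9.82 RPKM in anterior medial. Cpa3 and Cma1, proteases of mast cell granules, were its most abundant genes in anterior nasal and anterior lateral, and Fcer1a, a chain of the IgE receptor, was at 0 in every compartment except posterior medial. Cpa3 was lower in posterior than anterior nasal by 4.51 (posterior minus anterior -4.51, SE 0.93, limma adjusted p = 0.0193). Ms4a2, another chain of that receptor, was higher in anterior lateral than medial by 2.89 (SE 0.33, limma adjusted p = 0.0364). Its means were low, at 0.687 RPKM in anterior lateral and 0 RPKM in anterior medial. Of all genes above 0, 1.08% were called within nasal and 0.841% for anterior lateral against medial. The order was not the same everywhere. In posterior medial the sum was 29.2 to 72.9 RPKM with Gata2 at 0 to 2.54 RPKM. In anterior lateral replicate 1 the sum was 10.8 RPKM with Gata2 at 8.56 RPKM, above all anterior medial libraries, and in anterior oral replicate 1 it was 43.2 RPKM with Gata2 at 5.64 RPKM. The part of mast cells in the Gata2 levels was not tested.

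The 10 endothelial markers summed to 106 to 174 RPKM in anterior nasal, below the 175 to 279 RPKM of anterior oral, the reverse of Gata2, and to 217 to 252 RPKM in anterior lateral, above the 153 to 181 RPKM of anterior medial. The 10 osteoblast markers were at 108 to 151 RPKM in anterior nasal and 52.4 to 82.5 RPKM in anterior oral, but highest in posterior nasal at 476 to 688 RPKM, where Gata2 was at 3.33 to 4.90 RPKM. Erythroid markers summed to 292 to 483 RPKM in anterior nasal and 355 to 426 RPKM in anterior oral, which overlapped. The megakaryocyte (11.5 to 56.6 against 12.1 to 46.7 RPKM), macrophage (63.3 to 118 against 65.8 to 71.7 RPKM), skeletal muscle (23.3 to 97.6 against 44.2 to 54.9 RPKM) and neuron and Schwann cell lists (13.4 to 35.4 against 22.7 to 33.8 RPKM) overlapped between anterior nasal and anterior oral as well. Between anterior lateral and anterior medial, the smooth muscle and pericyte sums did not overlap, at 137 to 140 against 53.5 to 113 RPKM. Of that list the smooth muscle genes Actg2 (4.36, SE 0.51, limma adjusted p = 0.0368) and Myh11 (3.07, SE 0.21, adjusted p = 0.0123) were higher in anterior lateral on the log2(RPKM + 0.1) scale. The neuron and Schwann cell sums were lower there, at 18.1 to 22.1 against 38.6 to 62.2 RPKM, while Sox10, a neural crest and Schwann cell factor, was higher by 2.43 (SE 0.28, adjusted p = 0.0364). The part of these cells in the Gata2 levels was not tested.

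**Figure D3:**
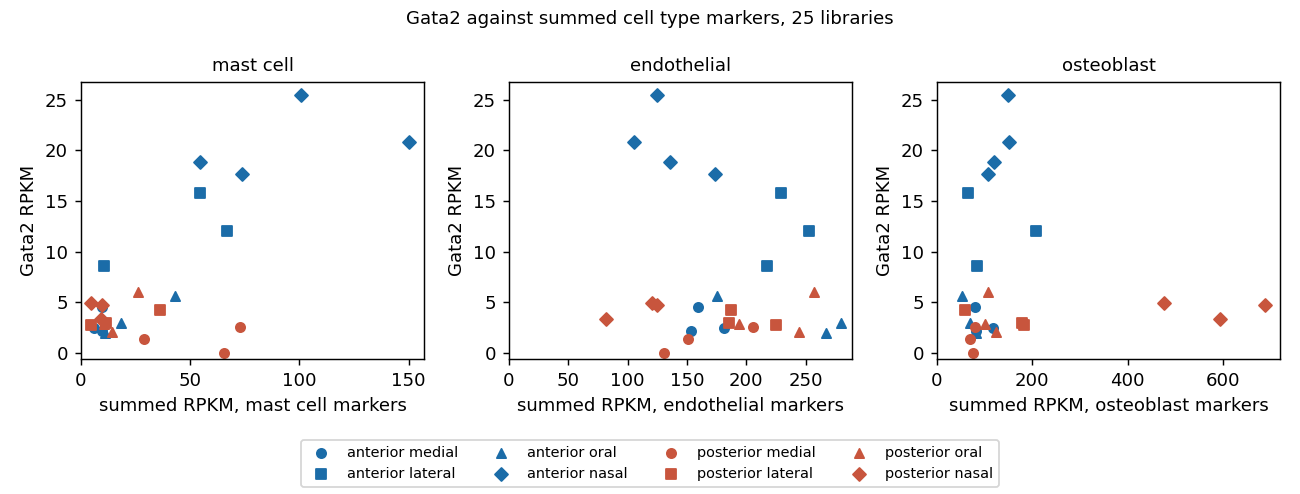
Gata2 in RPKM (vertical axis) against the summed RPKM of 10 mast cell, 10 endothelial and 10 osteoblast markers (horizontal axes), 1 point per library, anterior blue and posterior red. The 4 anterior nasal libraries have 54.4 RPKM or more of mast cell markers, while the 3 posterior medial libraries have 29.2 to 72.9 RPKM of them with Gata2 at or below 2.54 RPKM.

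Gata4, Gata5 and Gata6, the members known from heart and endoderm, were near the floor of detection. Over all 25 libraries they held 33.9, 153 and 98.6 reads, against 1920 for Gata2 and 303 for Gata3. Over the 11 contrasts no test of any of them passed with limma over all genes above 0. The lowest adjusted p values were 0.0867 for Gata5, posterior minus anterior, at -1.08 (SE 0.32), and 0.105 for Gata6, anterior lateral minus medial, at 1.94 (SE 0.36).

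Gata5 was above 0 in 24 libraries. It was at 0.739 ± 0.667 RPKM in the anterior and 0.294 ± 0.208 RPKM in the posterior libraries. The highest value, 2.87 RPKM or 40 reads, was in anterior nasal replicate 4, and the other anterior nasal libraries read 0.809, 0.273 and 0.387 RPKM. The anterior medial libraries held 6 reads each, at 0.535, 0.533 and 0.539 RPKM, and the posterior medial libraries 1, 0 and 2 reads, at 0.0535, 0 and 0.151 RPKM. This medial difference of -2.02 (SE 0.59) had an adjusted p of 0.173 with limma.

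Gata6 was above 0 in 17 libraries and did not exceed 0.437 RPKM. All 3 anterior medial libraries were at 0, where 3 reads would have given 0.164 to 0.166 RPKM, and the anterior lateral libraries read 0.385, 0.119 and 0.436 RPKM, or 2 to 6.28 reads. The anterior oral libraries read 0.437, 0.257 and 0.342 RPKM and the posterior oral ones 0.407, 0.417 and 0.0971 RPKM. Anterior and posterior means, 0.215 ± 0.181 and 0.177 ± 0.164 RPKM, differed by less than their spread.

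Gata4 was above 0 in 9 libraries. Anterior nasal was the 1 compartment with reads in every library, at 1.33, 0.178, 0.126 and 0.0842 RPKM, or 10.1, 2, 1 and 1.2 reads. The 6 anterior medial and lateral libraries were at 0, with 3 reads worth 0.261 to 0.332 RPKM, and Gata4 could not be tested between them. Of the other libraries above 0, anterior oral replicate 3 held 8.02 reads and posterior medial replicate 1 held 8, and no other had more than 2.

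**Figure D4:**
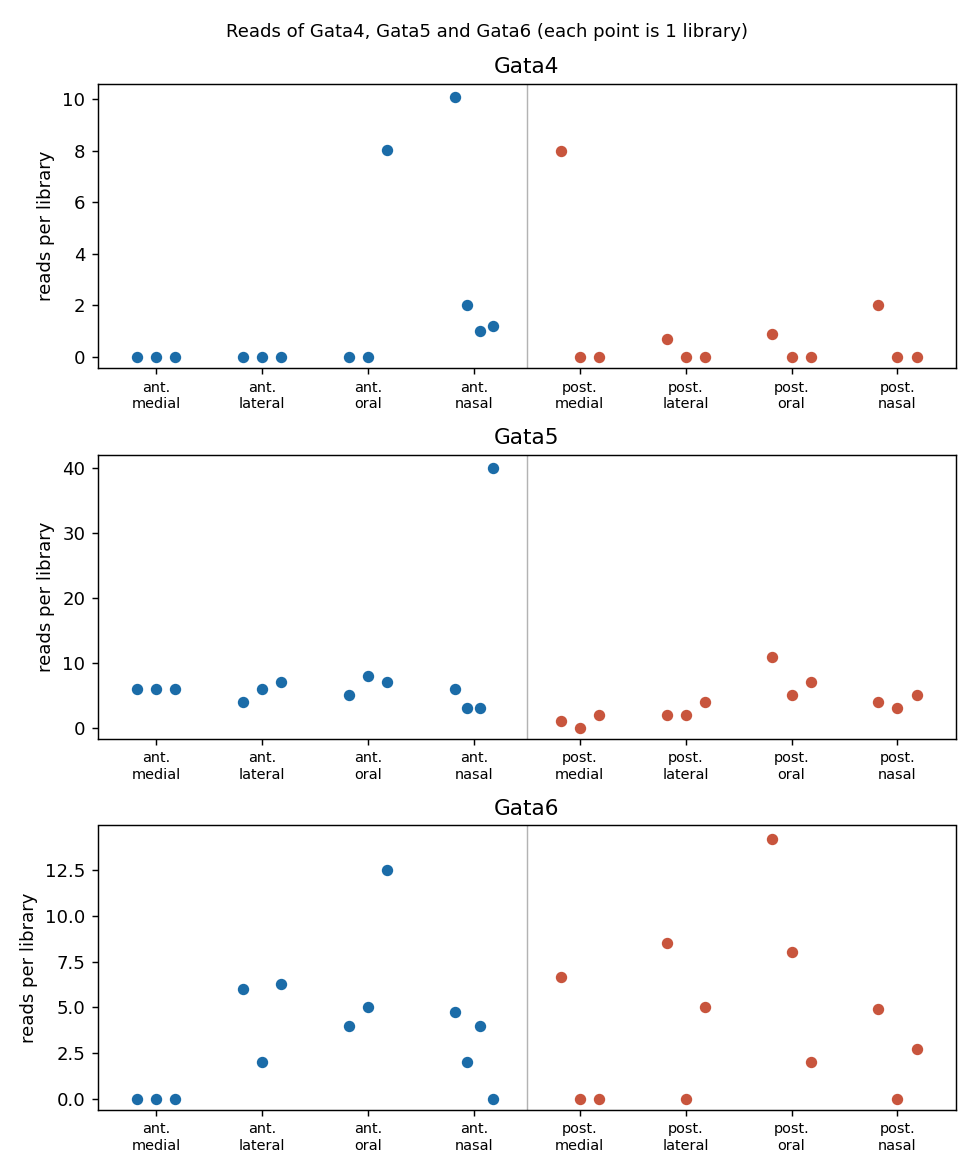
Reads of Gata4, Gata5 and Gata6 on the vertical axes, worked out from RPKM and depth, each point 1 library, by compartment. Single libraries stand out, at 10.1 reads for Gata4 and 40 for Gata5 in anterior nasal, and Gata6 is at 0 in all anterior medial libraries.

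Over the family, Gata2 made up 66.3% to 87.8% of the summed mean RPKM of the 5 members in each compartment. The Gata3 share was 13.2% to 18.1% in the 4 anterior compartments and in posterior lateral, and 1.04% to 5.48% in posterior medial, nasal and oral. The mean of Gata2 was 3.84 to 5.37 times that of Gata3 in the anterior compartments and 5.07, 14.2, 36.1 and 77.5 times in posterior lateral, medial, nasal and oral. The posterior oral value rests on 2 reads of Gata3 in all. The summed level per library was 22.5 to 33.6 RPKM in anterior nasal and up to 18.5 RPKM in anterior lateral, and at most 7.54 RPKM in any library of the other compartments.

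Over the 25 libraries Gata2 and Gata3 had a Pearson correlation of 0.71 and a Spearman correlation of 0.64 in log2(RPKM + 0.1), given as a description. Over the 8 compartment means r was 0.80, and over the deviations of libraries from their compartment means it was 0.24. Libraries share depth and run, which can enter these values. Among the 11913 genes that reached 5 RPKM in 3 or more libraries, those most like Gata2 by Pearson correlation over the 25 libraries were Adamts5, a protease of the cartilage matrix, at 0.89, Kank4, Vav3 and Slc25a35 at 0.83 each, and Gm6225 at 0.82. Adamts5 was at 7.99 RPKM in anterior nasal, 4.52 RPKM in anterior lateral and 1.55 to 2.82 RPKM in the other compartments. No likeness was computed for the other members, which are too low.

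The other genes with GATA-type zinc fingers were counted in the same comparisons. Of 6, 4 reached the minimum, and none was called in any of the 5 comparisons with limma. Of all genes at the minimum 2.51% were called for anterior lateral against medial, 1.25% for posterior oral against nasal and 3.32% for posterior against anterior. For posterior lateral against medial and anterior oral against nasal 0 were called, where 159 and 318 genes had an unadjusted p under 0.05. Gatad2b, a subunit of the NuRD chromatin complex, was the most abundant at 47.9 to 64.9 RPKM, and Trps1, a repressor with 1 GATA-type finger that acts in bone and cartilage, was at 8.33 to 23.7 RPKM. Gata1 held 57.8 reads in all. It was at 1.23 ± 1.11 RPKM in anterior nasal and 0.964 ± 1.28 RPKM in posterior lateral, its highest compartments.

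Of 12 GATA cofactors and partners 11 were listed, and 7 reached the minimum in the pairs. The 1 call was Runx1, a blood and skeletal transcription factor, lower in anterior lateral than in anterior medial with limma (lateral minus medial -1.94, SE 0.23, adjusted p = 0.00649), with means of 9.50 and 36.0 RPKM, among 2.51% of genes called. Over all genes above 0 its adjusted p was 0.0513. The cofactors Zfpm1 and Zfpm2 were at 1.76 to 3.66 RPKM and 1.19 to 3.28 RPKM, below the minimum. Ldb1 and Tcf3, which serve many complexes, were the most abundant, Ldb1 at 29.1 to 46.9 RPKM and Tcf3 at 31.9 to 54.7 RPKM. Lmo2 was at 3.69 to 10.4 RPKM and Tal1 at 1.96 to 5.32 RPKM.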

How the data were processed

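RNA from laser captured compartments of wild type CD1 palates was purified on Qiagen columns, amplified with the NuGEN Ovation V2 system, tagmented with Nextera and sequenced as single-end reads of 50 bases. The authors deposited RPKM values per gene and library, computed in GeneSpring 12.6.1 once duplicate and multiply aligned reads had been dropped. TopHat and mm9 are named in the submitters' processing notes, and the gene annotation is not given in the sources used here. Removal of duplicates lowers the highest values and leaves few reads for low genes. Groups and replicate numbers came from the sample labels, and the 8 sequencing runs from alignment names.

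Depth was worked out from the RPKM steps, since a gene's values in a library are multiples of what 1 read is worth. Of 552 ratios between libraries 549 agreed when taken by way of another library. Of 1007 genes 413 had an annotated transcript length at the implied total, and at most 20 had one at any other. Reads can count in part where they overlap a transcript in part, so read numbers need not be whole. Counting error alone limits a value of 3 reads or fewer.

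Comparisons used limma 3.58.1 (lmFit, eBayes) in R 4.3.3 on log2(RPKM + 0.1) with Benjamini-Hochberg adjustment over all genes tested and a threshold of 0.05. The planned minimum was 5 RPKM in 3 compared samples for pairs and 10 RPKM in 6 samples for posterior against anterior. Gata2 met the former in the anterior pairs, where its high compartment alone was enough, and not in the posterior pairs. It met the latter in exactly 6 libraries, all anterior, and Gata3, Gata4, Gata5 and Gata6 met neither. Tests of members were therefore run over all genes above 0, and the standard errors of members come from that fit unless stated. These tests were not planned. For posterior against anterior the plan gave members under the minimum values with no test. The study's own pooled test needs read counts and was replaced by limma. The procedure was tested on simulated data, drawn from normal distributions on the log2 scale. Such draws do not copy the counting of a few reads, so they do not show how the tests behave for genes that low. The members and gene lists were chosen with earlier results of these data known. The genes named are the members, genes taken from those of the lists that were called or are the most abundant of their list, and the 5 genes most correlated with Gata2; cofactors and marker sums beyond these were chosen after their values were seen. Alternatives were pseudocounts of 1 and 0.01, median centring, quantile normalization, a mean-variance trend, other minimums, a replicate block, a fit of all compartments, the run as a term, and each library left out. Replicate numbers of anterior oral and nasal libraries deviated together (correlations 0.24, 0.21 and 0.13), which by the rule used pairs them. Posterior lateral and medial libraries had 0.23, 0.04 and 0.28, and each remaining pair included a negative correlation. The tests given do not use the pairing. With the replicate block the Gata3 difference, anterior oral minus nasal, was -2.12 (limma adjusted p = 0.9265). Tables were made in Python 3.11.15 (pandas 2.3.3 and scipy 1.17.1, on numpy 2.4.6), and figures in matplotlib 3.10.9. Transcript lengths came from GENCODE M21 and promoters from RefSeq, both on GRCm38, and no mm9 coordinate was combined with them.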

Additional observations from a re-analysis of the deposited data

Results flagged for a closer look

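Gata4 in anterior nasal replicate 1 was at 1.33 RPKM (10.1 reads), far from the other 3 libraries of the compartment at 0.0842 to 0.178 RPKM. The gap to the nearest library was above the critical share of the range for 4 libraries, 0.829 by Dixon's rule, in 1 of 5 members tested in this compartment, the only one with 4 libraries. Chance marks about 1 in 20 such groups where values are normally distributed. That rate need not hold for RPKM values that rest on a few reads.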

How the results depend on the processing

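Gata3 was called lower in posterior than anterior libraries in all 33 alternatives (limma adjusted p 9.74e-07 to 0.0011, difference -4.19 to -1.25) and in nasal in all 32 (1.09e-05 to 0.0219). With the replicate block the first was -2.82 (adjusted p = 0.000648), and the block changed no call of Gata2 or Gata3; the pairing by number gave Gata5 a call within medial (1 member, adjusted p = 0.0458). The Gata3 medial call was lost with a pseudocount of 1 (-0.72), median centring (-1.98), quantile normalization (-2.43) and a mean-variance trend (-2.51), and with 4 libraries left out in turn (over all libraries left out, -3.15 to -2.19). It was gained within lateral with a pseudocount of 1 (-1.22) and within oral with centring (-2.55). Leaving out 1 library, some of them from other compartments, also gave calls within lateral (posterior lateral replicate 2, -3.02, posterior medial replicates 1 and 2, -2.29, over all left out -3.02 to -1.65) and oral (posterior lateral replicates 1 and 2, posterior medial replicates 1 and 2, -2.48, over all left out -2.69 to -2.23). The anterior lateral against medial test of Gata3 passed with a pseudocount of 1 (1.03, adjusted p = 0.0326) and with centring (1.60, adjusted p = 0.0476). Its lateral-medial interaction, not called in any setting, changed sign with a pseudocount of 1 (-0.50), with centring (-0.22) and without posterior lateral replicate 2 or posterior medial replicate 2 or 3 (over all left out, -0.51 to 0.86). Gata6 was called in anterior lateral against medial with a pseudocount of 0.01 and without anterior lateral replicate 2 (1 member each, adjusted p = 0.0356 and 0.0252), and Gata5 within medial without anterior nasal replicate 4 (1 member, adjusted p = 0.0444), while leaving out most other libraries gave 0. The Gata2 difference within medial was -0.95 and -3.14 with pseudocounts of 1 and 0.01, -0.52 with quantile normalization and -0.60 without posterior medial replicate 2 (over all left out, -2.96 to -0.60). Its lateral-medial interaction was 1.30 with a pseudocount of 0.01, -1.43 with quantile normalization and -1.22 without that library (over all left out, -1.22 to 1.14). The Gata2 difference, anterior lateral against medial, was 2.82 with run as a term (SE 1.63, among genes at the expression minimum). The causes were not tested. Of 1220 alternatives for the log2 differences of the other members, 67 moved by more than the residual SD.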
